A study of Canis lupus familiaris with 36 samples.

Results

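The steady genes were the 206 genes of CLBL-1 cells whose mean level differed least between 4 treatments and 3 incubation times. They were chosen by measured values. Read counts were divided by the total count of their library and scaled to CPM, the count in a library of standard size, the libraries of each of the 12 treatment-time groups were averaged, and a gene was taken when its mean was at least 50 CPM over 35 libraries and its highest group mean was at most 1.2 times its lowest. Of 30424 genes in the count table, 4122 reached 50 CPM, and the 206 steady genes were 5.00% of these. CLBL-1 cells are dog B cells grown from a diffuse large B-cell lymphoma, and every library came from this 1 line. Its cells were incubated for 24, 48 or 72 h with DMSO alone, with 5 µM AS-605240 (AS), an inhibitor of the PI3K gamma isoform, with 1 µM Ibrutinib (Ibr), an inhibitor of BTK, or with both inhibitors together (Ibr+AS). Both inhibitors were dissolved in DMSO, so all groups had received the solvent, and the DMSO-only cells had the amount given with the combination. Each group held 3 libraries, 1 from each of the cell passages p121, p126 and p128 (replicates 1, 2 and 3). The library Ibr 72 h replicate 3, which the study set aside as an outlier, took no part in the choice, which left 2 libraries in that group.

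Genes of constant expression serve in transcript work as internal references, since a relative measurement of any other gene is read against them. Conventional reference genes encode abundant proteins of basic cell functions, such as ribosomal proteins, and are often assumed rather than measured to be constant. BTK and PI3K act below the B-cell receptor, where they pass its signal on to transcription factors and to protein synthesis. Gene symbols were paired with identifiers for 1068 genes in the lists used here, and 20 of the 206 steady genes had one. The other 186 were described by counts and ranges only, apart from a few given by identifier.

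Library totals ran from 9941919 to 14703839 counts, with a median of 11888025. Of the B-cell markers with a paired symbol, TNFRSF13C, the receptor for the B-cell survival factor BAFF, was measured at 71.0 to 281 CPM and the MHC class II gene DLA-DRA at 2088 to 4738 CPM. The T-cell marker TCF7 was at 0 to 0.276 CPM, and LYZ, listed as a myeloid marker, was at 68.2 to 287 CPM, so 1 of 1 paired myeloid marker was present at a moderate level. The cell line label could be checked with these 4 genes only. The sequencing run is named by no label and was read from the library numbering in the table header. So read, it separated passage p121 from passage p128 completely, and run and passage could not be told apart for those 2 passages. In passage p126 the AS and Ibr+AS libraries of 48 h and all libraries of 72 h were in the later run. Its comparisons of AS and Ibr+AS with DMSO at 48 h, and of DMSO at 72 h with 24 h, therefore crossed runs. Except in fits without a passage term, p-values were set against the spread between libraries that group and passage left unexplained. All libraries were of 1 line.

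**Figure D1:**
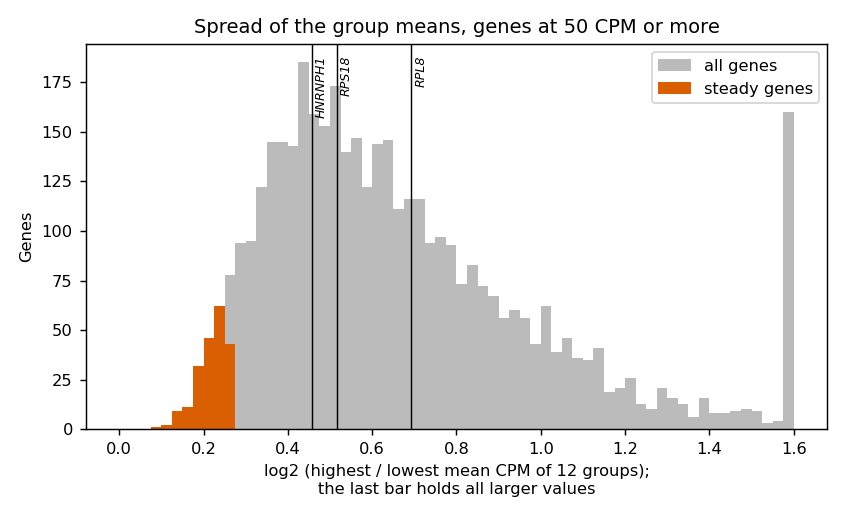
Number of genes (y axis) by the log2 of the highest over the lowest mean CPM of the 12 groups (x axis), for the 4122 genes at 50 CPM or more (grey) and the 206 steady genes among them (orange). The last bar holds all larger values. The steady genes form the left end of 1 continuous distribution, and the vertical lines of HNRNPH1, RPS18 and RPL8, 3 conventional reference genes, stand to the right of it at ratios of 1.37, 1.43 and 1.62.

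The ratio that chose the genes ran from 1.06 to 1.1996 among the steady genes, with a median of 1.17. Over all 4122 genes at 50 CPM or more the median was 1.52, and 631 genes (15.3%) varied at least 2-fold between groups. Only 7 steady genes stayed within a ratio of 1.1, and 59 lay at least 0.05 under the limit. The 3 steady genes with a symbol that lay just inside the limit were CNPY3 at 1.188, ACTN4 at 1.193 and TMED9 at 1.197. The first 3 genes with a symbol outside it were NUDT3 at 1.203, BRD1 at 1.203 and ST3GAL1 at 1.207. No gap separated the steady genes from the others, as the histogram of ratios shows.

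The steady genes were of ordinary abundance. They had a median level of 94.9 CPM against 104 CPM for all genes at 50 CPM or more, and their highest was 1767 CPM. They made up 5.61% of the 1979 genes between 50 and 100 CPM, 5.30% of the 1264 genes between 100 and 200 CPM, 3.57% of the 616 genes between 200 and 500 CPM and 2.28% of the 263 genes above 500 CPM. Together they took 2.78% to 3.01% of the counts of a library. The library left out by the rule gave 2.83%, inside that range.

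The spread within groups came from the same libraries that had chosen the genes, and a limit on the ratio of group means by itself favours genes with a small spread, so it is given as a description. The relative standard deviation between passages, pooled over the groups, had a median of 6.67% for the steady genes and 8.21% for all genes at 50 CPM or more, while counting alone gives a median of 2.96% and 2.83%. Between groups the relative standard deviation of the means was 4.78% and 12.3%. A steady mean was no promise of steady single libraries, since the highest of the 35 libraries exceeded the lowest 1.37-fold in the median steady gene and 2.11-fold in the widest. Of the 206 genes, 172 stayed within 1.5-fold over all 35 libraries.

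**Figure D2:**
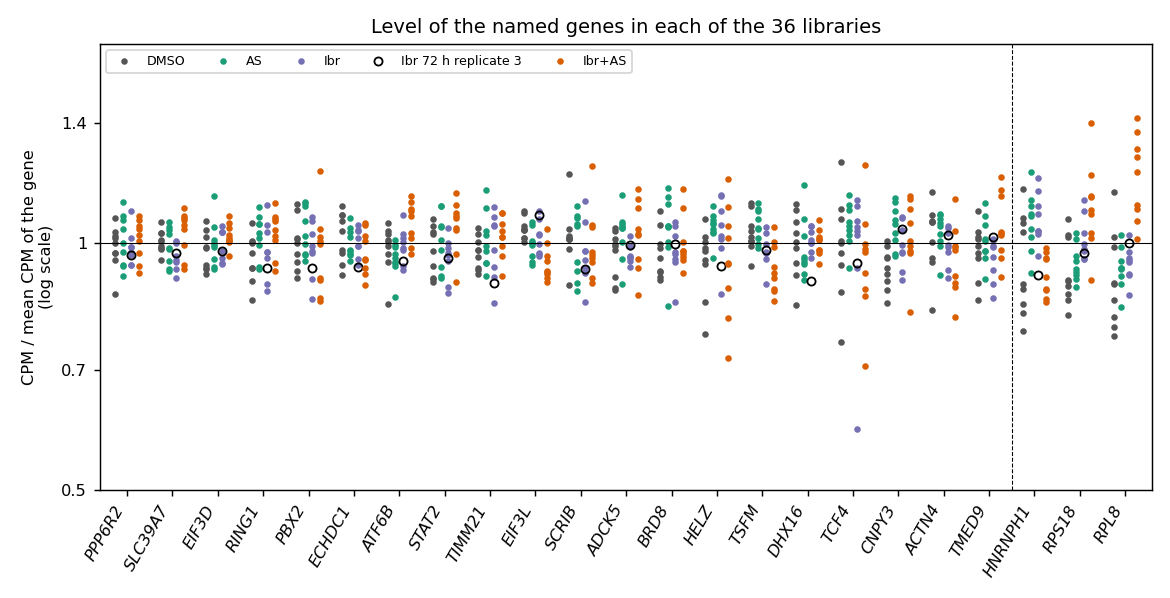
Level of each named gene in each of the 36 libraries, as CPM divided by the mean CPM of that gene (y axis, log scale), for the 20 steady genes with a symbol in the order of their ratio and, right of the dashed line, 3 conventional reference genes. Each point is 1 library, coloured by treatment with the 3 times together, and the open circle is Ibr 72 h replicate 3. The widest column among the steady genes is TCF4, and the orange Ibr+AS points of RPL8 lie above its mean.

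The 2 steady genes with the smallest ratios among those with a symbol were PPP6R2 and SLC39A7, both at 1.105. PPP6R2 encodes a regulatory subunit of protein phosphatase 6. Its 35 libraries ran from 84.5 to 109 CPM with a median of 97.6 CPM. Its lowest group was Ibr 24 h at 94.3 ± 2.46 CPM (SD, n = 3) and its highest AS 72 h at 104 ± 6.02 CPM (SD, n = 3). The 3 libraries of AS 72 h (105, 109 and 97.6 CPM) all exceeded the 3 of Ibr 24 h (96.6, 94.4 and 91.7 CPM). These 2 groups were picked as the extremes and differed in both drug and time, so this is a description only. SLC39A7 encodes a zinc transporter of the endoplasmic reticulum. It ran from 144 to 176 CPM with a median of 159 CPM, from 150 ± 4.77 CPM in Ibr 48 h to 165 ± 6.05 CPM in Ibr+AS 24 h (SD, n = 3 each).

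Among the translation genes, EIF3D and EIF3L, which encode subunits of the initiation factor that brings the small ribosomal subunit to mRNA, were steady. EIF3D was read in 6311 to 10312 counts per library, so that counting error was 1.12% of its level. It measured 625, 609 and 619 CPM in DMSO 24 h and 717, 678 and 702 CPM in Ibr+AS 24 h, its lowest and highest groups. The 2 groups, picked as the extremes, did not overlap, although they lay within the 1.2-fold limit. At 48 h the values were 675, 657 and 617 CPM in DMSO and 669, 670 and 666 CPM in Ibr+AS, and at 72 h they were 707, 655 and 688 CPM in DMSO and 692, 640 and 673 CPM in Ibr+AS. At these later times the groups overlapped.

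EIF3L had the smallest spread within groups of the 20 genes, 3.71% of its level against a counting error of 3.05%. It ran from 80.5 to 98.2 CPM, with its lowest group at 82.8 ± 2.46 CPM in Ibr+AS 48 h (SD, n = 3) and its highest at 97.1 ± 1.53 CPM in Ibr 72 h (SD, n = 2). In passages p121, p126 and p128 it stood at 94.1, 93.0 and 90.9 CPM in DMSO 24 h, at 97.6, 93.3 and 93.0 CPM in DMSO 48 h and at 85.4, 82.4 and 80.5 CPM in Ibr+AS 48 h. The 2 groups of 48 h did not overlap, but Ibr+AS 48 h was picked as the lowest group. In the edgeR test given below their difference was only -0.066 on the log2 scale (adjusted p = 0.644), so EIF3L was not called there. Of the other subunits of the same factor with a symbol, EIF3H had a ratio of 1.21 and EIF3E one of 1.41, and neither was steady.

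The steady transcription and chromatin genes were RING1, PBX2, BRD8, TCF4 and STAT2, of which BRD8 stood on the list of chromatin and transcription genes. RING1, a ubiquitin ligase of the Polycomb complex PRC1, ran from 63.2 to 82.9 CPM, with group means from 68.1 ± 5.85 CPM in DMSO 72 h to 77.3 ± 4.22 CPM in AS 24 h (SD, n = 3 each). PBX2, a homeodomain partner of HOX proteins, ran from 53.6 to 77.1 CPM. Its lowest and its highest library were both from the combination, at 72 h and at 24 h. BRD8, a bromodomain subunit of the TIP60 acetyltransferase complex, measured 104, 104 and 113 CPM in DMSO 24 h, its lowest group, against 115, 134 and 127 CPM in Ibr+AS 24 h. Every Ibr+AS library of that time was above every DMSO library. At 72 h the order was turned, with 120.7, 114.7 and 125.6 CPM in DMSO and 111, 109 and 112 CPM in Ibr+AS.

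TCF4 and HELZ had steady group means over unsteady libraries, and with TSFM they are described although the rule for named genes did not reach them, after their values were seen. TCF4, an E-protein transcription factor, varied by 15.5% within groups against 2.99% from counting. Ibr 48 h measured 103, 55.3 and 95.3 CPM and DMSO 48 h 117, 70.5 and 93.1 CPM, so passage p126 was the lowest of both groups. In Ibr+AS 24 h passage p121 was the lowest, with values of 65.9, 98.1 and 116 CPM. HELZ, which encodes an RNA helicase with a zinc finger, varied by 11.1%, and measured 52.0, 86.1 and 75.5 CPM in Ibr+AS 24 h. The ratio of TCF4, 1.19, was therefore small only as a ratio of means. ST3GAL1, just outside the limit, had a within-group spread of 15.4%.

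STAT2, which relays type I interferon signals, was the least abundant of the 20 in counts, with 460 to 811 counts per library. Its libraries ran from 45.2 to 59.8 CPM. DMSO 24 h was its lowest group with 47.1, 46.9 and 48.7 CPM, while Ibr+AS 24 h gave 46.6, 57.7 and 59.8 CPM. Passage p121 of the combination lay below all DMSO libraries of that time and the other 2 passages above them.

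The steady genes of the endoplasmic reticulum and secretory path were SLC39A7, ATF6B, CNPY3 and TMED9. ATF6B encodes a membrane-bound transcription factor of the unfolded protein response. It measured 129.5, 125.6 and 128.7 CPM in DMSO 48 h and 138, 129 and 143 CPM in Ibr+AS 48 h, and 122, 106 and 124 CPM in DMSO 72 h against 141, 124 and 137 CPM in Ibr+AS 72 h. The combination was higher in 3 of 3 passages at both times, by 0.093 ± 0.057 and 0.19 ± 0.044 on the log2(CPM + 0.5) scale (SD, n = 3). CNPY3, a chaperone cofactor for Toll-like receptors, measured 222, 232 and 233 CPM in DMSO 48 h and 240, 267 and 256 CPM in Ibr+AS 48 h, without overlap. At 72 h it measured 212, 226 and 243 CPM in DMSO and 276, 236 and 274 CPM in Ibr+AS. TMED9, a cargo receptor of the early secretory path, was the steady gene with a symbol nearest the limit. It measured 105, 127 and 110 CPM in DMSO 72 h and 140.9, 121.2 and 148.7 CPM in Ibr+AS 72 h. These groups overlapped through passage p126.

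Mitochondrial genes among the steady 20 were TIMM21, TSFM, ADCK5 and, by metabolism, the cytosolic ECHDC1. TIMM21, a subunit of the inner-membrane protein translocase, ran from 50.3 to 69.2 CPM. TSFM, the mitochondrial translation elongation factor Ts, ran from 89.1 to 117 CPM, with its lowest group in Ibr+AS 48 h at 96.8 ± 6.19 CPM (SD, n = 3). ADCK5, a member of the ADCK family of atypical kinases, measured 59.0, 61.2 and 59.3 CPM in DMSO 72 h, its lowest group, and 74.4, 58.2 and 78.4 CPM in Ibr+AS 72 h. ECHDC1, an enzyme that removes a faulty by-product of fatty acid synthesis, measured 77.1, 85.7 and 88.0 CPM in DMSO 24 h and 73.8, 70.6 and 72.7 CPM in Ibr+AS 24 h. All 3 combination libraries lay below all 3 controls, but in the edgeR test given below the difference was only -0.076 on the log2 scale (adjusted p = 0.591). At 72 h it measured 72.4, 82.0 and 74.6 CPM in DMSO and 83.9, 83.5 and 80.8 CPM in Ibr+AS, and the combination was higher in 3 of 3 passages although the groups overlapped.

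The remaining steady genes were ACTN4, SCRIB and DHX16. ACTN4, the actin cross-linker alpha-actinin 4, measured 390, 392 and 398 CPM in DMSO 24 h and 299, 329 and 365 CPM in Ibr+AS 24 h. At 48 h it measured 424, 369 and 390 CPM against 360, 335 and 325 CPM, and at 72 h 352, 304 and 348 CPM against 416, 381 and 364 CPM. The combination lay below the control at 24 and 48 h and above it at 72 h, while DMSO itself was lower at 72 h. The groups did not overlap at any of the 3 times, but the edgeR test given below called ACTN4 at 72 h only. SCRIB, a scaffold of cell polarity, ran from 350 to 513 CPM with group means from 384 ± 29.1 CPM in Ibr 24 h (SD, n = 3) to 452 ± 18.4 CPM in Ibr 72 h (SD, n = 2). DHX16, a helicase of the spliceosome, fell from 123 ± 5.09 CPM in DMSO 24 h, its highest group, to 104 ± 6.23 CPM in DMSO 72 h, its lowest (SD, n = 3 each).

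**Figure D3:**
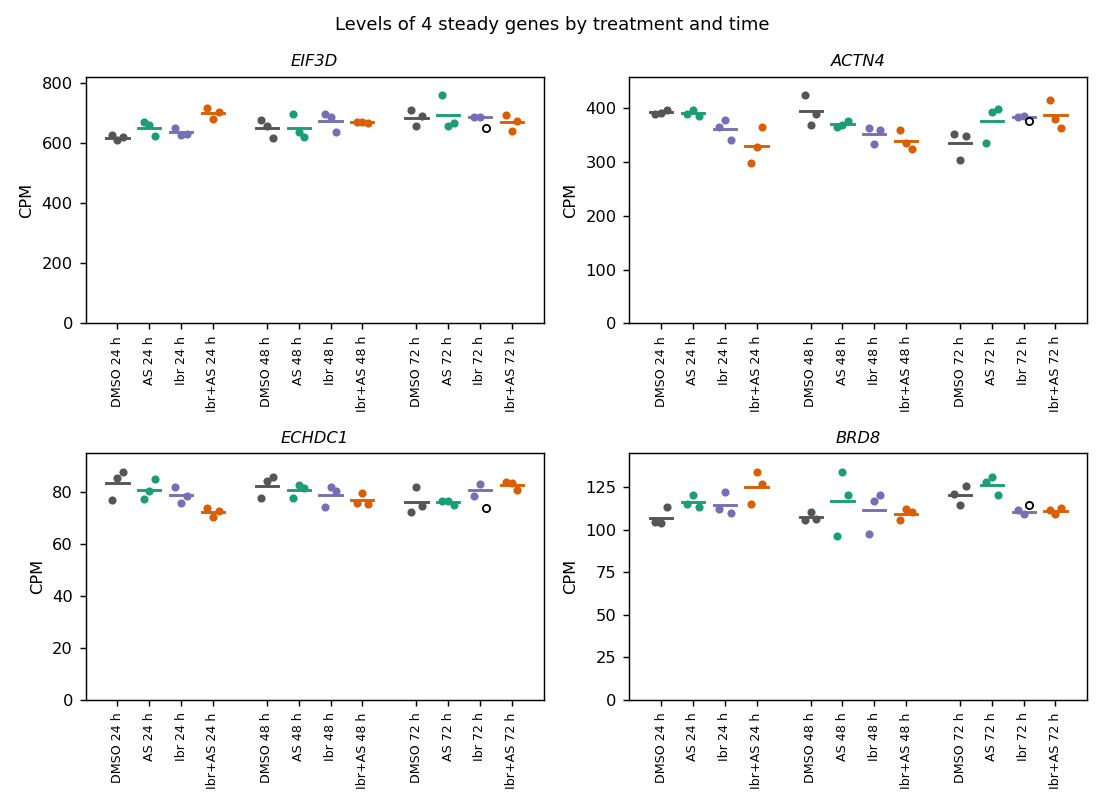
CPM (y axis, from 0) of EIF3D, ACTN4, ECHDC1 and BRD8 in the 12 treatment-time groups (x axis). Points are libraries in the order of passages p121, p126 and p128, bars are group means, and the open circle is Ibr 72 h replicate 3, which is in no mean. ACTN4 is lower with Ibr+AS than with DMSO at 24 and 48 h and higher at 72 h, and all 4 genes stay within 1.2-fold between group means.

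Some of the named genes lie next to or over other genes, which matters because the library kit does not mark the strand and overlapping genes then share reads. In the RefSeq annotation of the dog assembly UU_Cfam_GSD_1.0, another build than the one used for counting, PPP6R2 overlapped SBF1, PBX2 overlapped RNF5, ADCK5 overlapped CPSF1, BRD8 overlapped KIF20A, and ACTN4 overlapped CAPN12. EIF3D and ATF6B overlapped long non-coding RNA genes. For these 7 genes, reads of the shared stretches may have been left uncounted or, where the annotation used lacked the partner, counted for the named gene. Which of these happened was not tested. SLC39A7 and RING1 were separated by 1 protein-coding gene, ATF6B and PBX2 by 7, and PBX2 and SLC39A7 by 25, so 4 of the 20 genes were near neighbours, with 35 protein-coding genes between the outermost, ATF6B and RING1. The paired symbols fell mostly on genes with low identifiers, so the 20 are no even sample of the 206.

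Each of the following functional lists held 0 to 2 steady genes. Of all genes at 50 CPM or more with a symbol, 4.66% were steady. With lists this short, the counts are no result about the lists. The translation list had 18 genes at 50 CPM or more with 2 steady ones, and its median ratio was 1.43, against 1.52 over all 4122 genes. Splicing and mRNA processing had 25 genes, with DHX16 steady and a median of 1.44. Chromatin and transcription had 29 genes, with BRD8 steady and a median of 1.35. Vesicle and nuclear transport had 25 with TMED9 steady and a median of 1.51, and mitochondria and energy had 12 with TIMM21 steady and a median of 1.48. Protein folding and turnover had 25 genes, none of them steady, with a median of 1.52, and FBXO7 came nearest at 1.21.

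Of the B-cell receptor and PI3K signalling genes, 15 had a symbol and 9 reached 50 CPM, and 0 of the 9 were steady, where 4.66% of the genes at 50 CPM or more with a symbol were, so this count is no result about the signalling genes. The nearest to the limit were TAB1 at 1.23, MALT1 at 1.251 and MAPK9 at 1.254, a kinase adaptor, a paracaspase and a stress kinase. The widest were MYC at 2.41 and SGK1 at 2.77. The median of the 9 was 1.45, against 1.52 over all genes at 50 CPM or more. These 5 genes, like FBXO7, EIF3H and EIF3E, are not steady genes and were picked for their ratios after these were seen.

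None of the 3 conventional reference genes that had a symbol was steady, where 5.00% of all genes at 50 CPM or more were. Above 500 CPM, where all 3 lay, 2.28% were. With 3 genes, this count is no result about reference genes. The other genes on that list had no paired symbol and were not looked at. HNRNPH1 and RPS18 had smaller ratios than the median of 1.52 over those genes, and RPL8 had a larger one. RPL8, a ribosomal protein gene, measured 4418, 4314 and 4544 CPM in DMSO 24 h and 7646, 5958 and 6833 CPM in Ibr+AS 24 h. Its group means spanned 1.62-fold, with the highest in Ibr+AS 48 h at 7151 ± 868 CPM (SD, n = 3). RPS18 spanned 1.43-fold, from 1485 ± 43.3 CPM in DMSO 24 h to 2123 ± 297 CPM in Ibr+AS 24 h (SD, n = 3 each). HNRNPH1 spanned 1.37-fold, and fell within DMSO alone from 1093, 1007 and 993 CPM at 24 h to 790, 772 and 732 CPM at 72 h. By edgeR's quasi-likelihood test HNRNPH1 was lower at 72 h than at 24 h by 0.42 on the log2 scale (adjusted p = 3.92e-09), and RPL8 was higher in Ibr+AS than in DMSO at 24 h by 0.76 (adjusted p = 9.85e-10). These genes had not been chosen by their ratio, but for their common use.

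In the comparisons that the choice itself had used, small differences of steady genes still passed the test, and their counts are given as a description. A gene was called at an adjusted p of at most 0.05 by edgeR's quasi-likelihood test over all genes, with TMM scaling, passage as a term and no limit on the fold. For AS against DMSO, 0 of 206 steady genes were called at 24 h, where 2.52% of all genes tested were called, 0 at 48 h against 3.66% and 0 at 72 h against 13.2%. At an unadjusted p under 0.05 there were 8, 11 and 12 steady genes, and DESeq2 called 3, 2 and 5. For Ibr against DMSO, edgeR called 0 at 24 h against 9.13% of all genes, 2 at 48 h against 10.6% and 0 at 72 h against 17.6%. The unadjusted counts were 11, 16 and 8 and DESeq2 called 6, 6 and 6. For the unadjusted and the DESeq2 counts the shares of all genes are not given here, so they are a description only. The 2 genes called in Ibr 48 h, ENSCAFG00000008327 and ENSCAFG00000042866, named because they were so few, were higher by 0.28 and 0.31 on the log2 scale (edgeR, adjusted p = 0.0404 and 0.0470). With library totals in place of TMM neither was called, and the 1 steady gene called in their place was lower. The count was 0 without the passage term and 0 without the 72 h libraries of p128, again without the shares of all genes.

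With both inhibitors the calls were more numerous. EdgeR called 34 steady genes (16.5%) at 24 h, where 34% of all genes tested were called, 17 (8.25%) at 48 h against 30.8% and 20 (9.71%) at 72 h against 28.6%. Among all genes at 50 CPM or more the shares were 62.9%, 55.6% and 49.6%. All called steady genes were higher with the combination at all 3 times. None of them passed 2-fold, which the rule itself prevents. Without passage p121, p126 or p128 the counts were 24, 34 and 10 at 24 h. They were 13, 7 and 2 at 48 h and 3, 38 and 0 at 72 h. The count at 72 h was thus smaller without passage p121 or p128 and larger without passage p126. Without the 72 h libraries of passage p128 the count at 72 h was 6. The shares of all genes called in these smaller fits are not given here, so these counts are a description only.

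Which steady genes were called, and whether most of them were higher, depended on the scaling. TMM factors assume that most genes do not change, and they lay between 0.907 and 1.01 in the Ibr+AS libraries but between 0.999 and 1.05 in the DMSO libraries. The median difference of the steady genes between Ibr+AS and DMSO was 0.090, 0.098 and 0.100 on the log2 scale at 24, 48 and 72 h with TMM, and -0.041, -0.029 and 0.053 with library totals alone, the scale on which the genes had been chosen. The shift from one scaling to the other was 0.13, 0.13 and 0.047. With library totals, 15 steady genes were called at 24 h, where 35.2% of all genes tested were called, and 11 of the 15 were lower with the combination. At 48 h 6 of 8 called genes were lower, where 32.8% of all genes were called. At 72 h 2 of 9 were lower, where 28.2% of all genes were called. With library totals 4, 2 and 7 of the called genes were higher at 24, 48 and 72 h. The same numbers, 4, 2 and 7, were called under both scalings, so the genes called lower were other genes. The values of single libraries given above are on the scale of library totals.

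Of the 20 genes with a symbol, EIF3D, RING1, STAT2 and BRD8 were called in Ibr+AS at 24 h with edgeR and TMM, ATF6B and CNPY3 at 48 h, and ATF6B, ADCK5, CNPY3, ACTN4 and TMED9 at 72 h. Of these 11 calls only BRD8 at 24 h and TMED9 at 72 h were also made with library totals, where the adjusted p of the others by edgeR ran from 0.0545 (CNPY3 at 72 h) to 0.461 (ATF6B at 48 h). EIF3D was higher by 0.31 on the log2 scale with TMM (edgeR, adjusted p = 0.00269) and by 0.18 with library totals (edgeR, adjusted p = 0.0602), in 3 of 3 passages. BRD8 was higher by 0.35 and 0.22 under these scalings in 3 of 3 passages and was called under all 10 alternatives (edgeR and DESeq2, adjusted p from 2.33e-05 to 0.0388). TMED9 at 72 h was higher by 0.31 with TMM in 2 of 3 passages (edgeR, adjusted p = 0.00615) and was called under 7 of 10 alternatives, with adjusted p from 5.72e-05 to 0.423. ATF6B was called under 5 of 10 alternatives at each of its 2 times. Over the 9 drug comparisons, 148 steady genes were called in none, 44 in 1, 13 in 2 and 1 in 3. Of all genes at 50 CPM or more, 84.7% were called in at least 1.

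Time in DMSO alone moved some steady genes. In the fit of the 9 DMSO libraries edgeR called 1 steady gene at 48 h against 24 h, where 9.92% of all genes were called, and 16 at 72 h against 24 h, where 38% were called. The first, ENSCAFG00000006236, named because it stood alone, was higher by 0.25 on the log2 scale. Of the 16, 6 were higher and 10 lower at 72 h. ACTN4 was lower by 0.22 (edgeR, adjusted p = 0.00562) and DHX16 by 0.24 (edgeR, adjusted p = 0.00876), each in 3 of 3 passages. Without passage p121, p126 or p128 the count at 72 h was 10, 24 and 4, and in 1 fit of all 35 libraries it was 4. For these other fits the shares of all genes called are not given here, so their counts are a description only.

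Every group was the highest for some steady genes and the lowest for others. DMSO gave the highest group mean in 65 steady genes (31.6%) and Ibr+AS in 65 (31.6%), while among all genes at 50 CPM or more DMSO gave it in 51.7% and Ibr+AS in 24.3%. The lowest mean fell in DMSO for 64 steady genes, in Ibr+AS for 60, in Ibr for 59 and in AS for 23. These were 31.1%, 29.1%, 28.6% and 11.2%, against 35.2%, 50.7%, 8.93% and 5.12% of all genes at 50 CPM or more. Ibr 72 h, a mean of 2 libraries, was lowest in 28 steady genes (13.6%), against 3.30% of all genes at 50 CPM or more. Single groups were lowest in 36 genes (DMSO 72 h) and 34 genes (Ibr+AS 24 h) at the most and in 6 genes (AS 24 h) at the least. These were 17.5%, 16.5% and 2.91%, against 22.2%, 28.7% and 1.92% of all genes at 50 CPM or more. They were highest in 31 genes (Ibr+AS 72 h) at the most and in 8 genes each (Ibr 24 h and Ibr 48 h) at the least.

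The passages were not used by the choice except through the means, and they were compared in the fit of 35 libraries. EdgeR's F-test called 2 steady genes (0.971%), where 2.42% of all genes tested and 2.52% of those at 50 CPM or more were called. Both lacked a symbol and are named because they were so few. ENSCAFG00000008884 was at 121.1 ± 13.3 CPM in passage p121 (SD, n = 12), at 97.8 ± 9.10 CPM in passage p126 (SD, n = 12) and at 96.8 ± 3.71 CPM in passage p128 (SD, n = 11), with an adjusted p of 9.79e-07 by edgeR. ENSCAFG00000012938 was at 62.9 ± 4.55, 68.4 ± 5.78 and 72.3 ± 4.02 CPM, with an adjusted p of 0.0135 by edgeR. The first was high in passage p121 alone, and the second differed by less. The comparison of the other 2 passages, leaving out passage p121, p126 or p128 in turn, called 0, 3 and 2 steady genes. These 3 counts are given without the shares of all genes and are a description only.

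Among the genes with a symbol, none was called between passages. The smallest adjusted p was that of TMED9 by edgeR, 0.378, at 118 ± 10.1, 125 ± 8.02 and 127.6 ± 9.89 CPM in passages p121, p126 and p128 (SD, n = 12, 12 and 11). CNPY3 followed with 235 ± 19.6, 241 ± 22.97 and 251 ± 14.2 CPM (edgeR, adjusted p = 0.461), then BRD8 (edgeR, adjusted p = 0.465) and SCRIB (edgeR, adjusted p = 0.549). The median absolute difference between passages p121 and p128, averaged over groups, was 0.040 on the log2(CPM + 0.5) scale for the steady genes and 0.047 for all genes at 50 CPM or more. Both were below 0.05 on that scale.

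The library left out by the rule, Ibr 72 h replicate 3, allowed a reading of the steady genes in a sample that had not chosen them. Against the other 2 libraries of its group, edgeR called 0 of 206 steady genes, where 0.0694% of all genes were called, and DESeq2 called 0. No steady gene had an unadjusted p under 0.05. The lone library was assumed to vary like the other groups, and with so few calls among all genes a count of 0 says nothing about the steady genes. In CPM, 200 of the 206 genes (97.1%) lay within 1.2-fold of the mean of replicates 1 and 2, against 86.1% of all genes at 50 CPM or more. The median absolute difference was 0.080 on the log2(CPM + 0.5) scale for the steady genes and 0.12 for all genes at 50 CPM or more. For the replicate 3 libraries of the other 11 groups, which had taken part in the choice, the steady genes within 1.2-fold ranged from 90.3% to 100%.

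**Figure D4:**
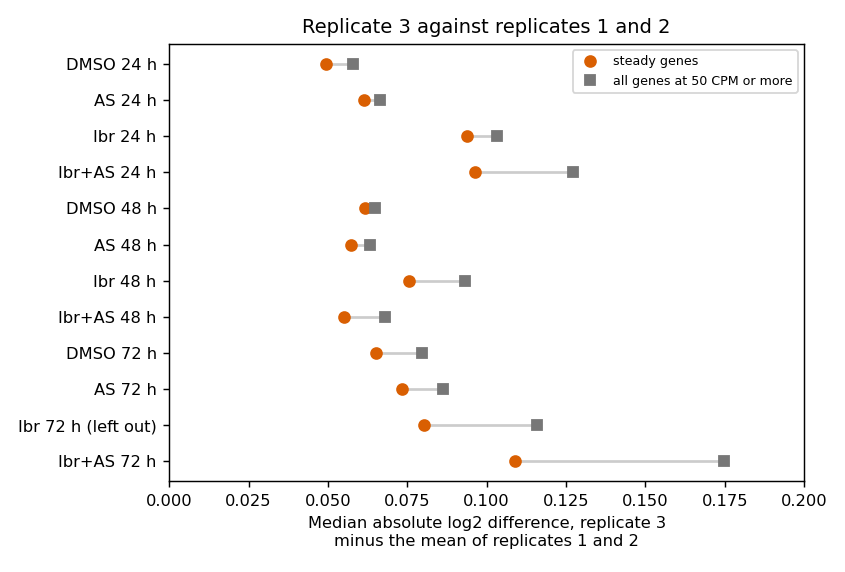
Median absolute log2 difference between replicate 3 and the mean of replicates 1 and 2 (x axis) in each of the 12 groups (y axis), for the 206 steady genes (orange circles) and all 4122 genes at 50 CPM or more (grey squares). The steady genes lie left of all genes in every group. The library left out by the rule, Ibr 72 h, stands at 0.080 and 0.12, and Ibr+AS 72 h is the widest at 0.11 and 0.17.

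In the left-out library 153 steady genes (74.3%) lay between their lowest and highest group means, 17 lay above and 36 below. Over the 35 libraries that had chosen the genes this share ran from 45.6% to 83.5%, with a median of 72.3%. Among the genes with a symbol, EIF3L stood at 97.1 CPM, RPL8 at 5598 CPM and BRD8 at 115 CPM in that library, each within the range of the other 35 libraries. The largest differences by edgeR among the 20 were a fall of ATF6B by 0.19 and of SCRIB by 0.14 on the log2 scale, neither called. For ATF6B this library measured 119 CPM beside 136 and 129 CPM in replicates 1 and 2.

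The choice was also repeated on 2 passages at a time and followed in the passage left out, as a description without a test. With passage p121 held out 145 genes passed the limits, with p126 held out 120 and with p128 held out 140. Of these, 112, 92 and 115 were among the 206, and 39 genes passed in all 3 pairs of passages. In the passage held out, the highest single library exceeded the lowest 1.28 ± 0.031-fold in the median chosen gene (SD, n = 3 passages) and 1.63 ± 0.055-fold in the median of all genes at 50 CPM or more. The single values of chosen genes were 1.31 for passage p121, 1.28 for p126 and 1.24 for p128. Within 1.5-fold lay 89.0%, 94.2% and 97.1% of the chosen genes, against 31.2%, 31.6% and 40.9% of all.

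The difference between drug and control in the held-out passage was smaller for the chosen genes in each of the 9 comparisons. For Ibr+AS the median absolute log2 difference from DMSO was 0.14 ± 0.011 at 24 h, 0.094 ± 0.0051 at 48 h and 0.16 ± 0.024 at 72 h in the chosen genes (SD, n = 3 passages). In all genes at 50 CPM or more it was 0.42 ± 0.068, 0.35 ± 0.049 and 0.29 ± 0.018. For Ibr at 24 h the values were 0.080 ± 0.0085 and 0.19 ± 0.023, and for AS at 24 h 0.073 ± 0.0066 and 0.13 ± 0.026 (SD, n = 3 passages). For AS at 48 and 72 h they were 0.091 ± 0.030 and 0.13 ± 0.037 in the chosen genes (SD, n = 3 passages). In all genes at 50 CPM or more they were 0.14 ± 0.039 and 0.19 ± 0.033 (SD, n = 3 passages). For Ibr at 48 h the values were 0.099 ± 0.021 in the chosen genes and 0.17 ± 0.018 in all (SD, n = 3 passages). For Ibr at 72 h they were 0.11 ± 0.047 and 0.23 ± 0.057 (SD, n = 2 passages). The order of the comparisons differed between the passages.

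**Figure D5:**
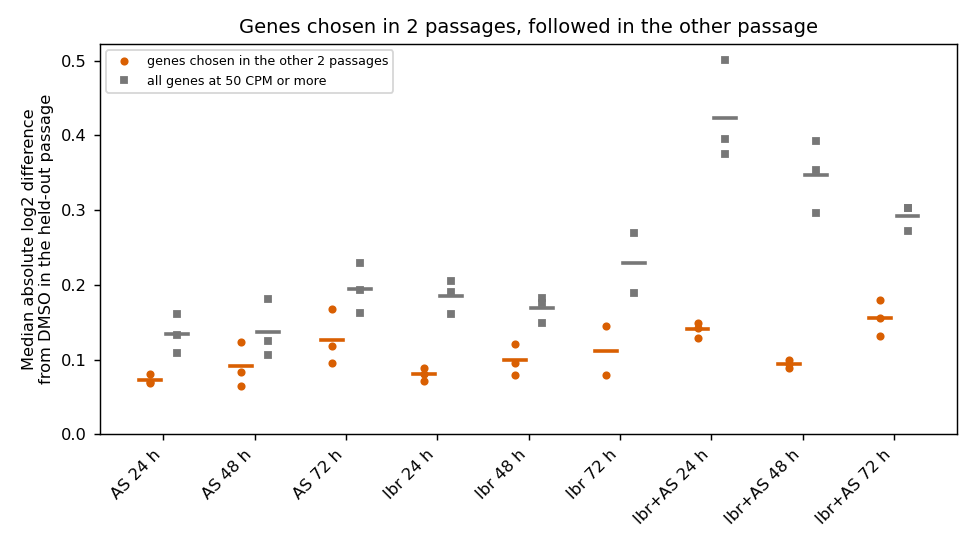
Median absolute log2 difference between each drug group and DMSO of the same time (y axis) in a passage that took no part in the choice, for genes chosen in the other 2 passages (orange) and all genes at 50 CPM or more (grey). Points are the 3 held-out passages (2 for Ibr 72 h) and bars their means. In each of the 9 comparisons the orange mean lies below the grey one, with 0.14 against 0.42 for Ibr+AS 24 h.

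Membership itself depended on the scaling more than its size did. With TMM-scaled CPM 234 genes passed the same limits and 115 of them were among the 206, which is 55.8% of the steady genes and 49.1% of the genes chosen with TMM. With size factors of the DESeq2 kind 244 passed, of which 105 were shared, and 104 genes passed under all 3 scalings. The 206 genes had a median ratio of 1.19 and a highest ratio of 1.31 after TMM. Of the 20 genes with a symbol, 9 stayed at or below 1.2, among them PPP6R2 at 1.14, SLC39A7 at 1.17, EIF3L at 1.103, ECHDC1 at 1.12 and SCRIB at 1.149. EIF3D rose to 1.24 and BRD8 to 1.28. Leaving out passage p121, p126 or p128 from the choice left 145, 120 and 140 genes.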

How the data were processed

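Poly-A RNA of 36 CLBL-1 libraries was sequenced single-end. The authors aligned the reads with STAR 2.7.5a to CanFam3.1 and deposited raw read counts per Ensembl gene, which were used as deposited. Which strand column they kept is not given in the sources used here. CPM was the count divided by the library total. Differences were tested with edgeR 4.0.16 (quasi-likelihood test, TMM, genes whose reads summed to 2 or more in the fitted libraries, Benjamini-Hochberg adjustment over all genes), with passage and group as terms on 35 libraries, as in the study's design, and on the 9 DMSO libraries for time. DESeq2 1.42.0 in R 4.3.3 was an alternative. The fits were tested on simulated data. Other alternatives were RLE factors, an expression filter, no passage term, the sequencing run as a term, other limits of level and ratio, and each passage left out.

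Passages paired the samples by design, being named in the labels. Deviations from group means correlated with a median r of 0.137 over 187 pairs of libraries of the same passage and -0.050 over 374 pairs of different passages. No 2 replicates were alike within counting noise, with a chi-square per degree of freedom from 1.93 to 28.9 over 36 pairs. For DMSO 24 h replicate 3 the title and the passage field gave different passages, and the field was used.

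The steady genes and the gene lists were chosen with earlier results of these data known. Genes with a symbol were named by rule: the smallest ratios, the highest levels, those nearest the ratio limit, list members, the smallest adjusted p for the passages, the left-out library and Ibr+AS, and the conventional reference genes. Symbols came from identifier tables of the study and covered 20 steady genes. No sequences were used here.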

Additional observations from a re-analysis of the deposited data

Results flagged for a closer look

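Among the steady genes with a symbol, 60 pairs of times were looked at for the combination, and in 7 of them all 3 passages lay on one side of DMSO at one time and all 3 on the other side at another. These differences between times were not tested, and the values are Ibr+AS minus DMSO on the log2(CPM + 0.5) scale with library totals (mean ± SD, n = 3 passages). EIF3D differed by 0.18 ± 0.022 at 24 h and by -0.032 ± 0.0015 at 72 h. BRD8 differed by 0.22 ± 0.12 at 24 h and by -0.11 ± 0.046 at 72 h. ECHDC1 went the other way, with -0.20 ± 0.12 at 24 h, -0.10 ± 0.075 at 48 h and 0.12 ± 0.093 at 72 h. ACTN4 differed by -0.25 ± 0.13 at 24 h, by -0.21 ± 0.065 at 48 h and by 0.21 ± 0.13 at 72 h, while DHX16 differed by -0.053 ± 0.058 at 48 h and by 0.13 ± 0.077 at 72 h. Going from library totals to TMM moved the median difference of the steady genes between Ibr+AS and DMSO upward by 0.13 at 24 and 48 h and by 0.047 at 72 h, a shift that is more than the size of the differences of EIF3D at 72 h, of ECHDC1 at 48 h and of DHX16 at 48 h. For the single drugs 12 further such pairs were seen, and the number of pairs looked at is not given here. Such pairs were not counted over all genes, so neither count is a result about the steady genes.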

How the results depend on the processing

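The number of steady genes was 206, and it was 95 with a mean of at least 100 CPM, 59 and 419 with a limit of the ratio lower or higher by 0.05, 188 without the 72 h libraries of p128, and 120 to 145 with 1 passage left out. Group means adjusted for passage as a replicate block gave 203, of which 196 were shared. The counts of called steady genes were small and moved with the tool. They are given here without the share of all genes called by the same alternative, so they describe the processing only. For AS, 0 at each time became 3, 2 and 5 with DESeq2 and 1, 1 and 5 with the expression filter at 24, 48 and 72 h, and at 72 h 1 with RLE factors and 2 with library totals. For Ibr at 24 h, 0 became 6 with DESeq2, 3 with the filter, 1 with no replicate block and 1 without the 72 h libraries of p128. For Ibr at 48 h, 2 became 6 with DESeq2, 7 with the filter, 1 with RLE factors or the sequencing run as a term, 1 other gene with library totals, and 0 with no replicate block or without those 72 h libraries. For Ibr at 72 h, 0 became 6 and 4 with DESeq2 and the filter. For Ibr+AS at 24, 48 and 72 h, 34, 17 and 20 became 58, 45 and 38 with DESeq2 and 15, 8 and 9 with library totals, an alternative chosen after seeing the data. The filter gave 39 at 48 h and 38 at 72 h, RLE factors 26 at 48 h, and leaving out the 72 h libraries of p128 gave 36 at 24 h and 6 at 72 h. With no replicate block the counts for Ibr+AS were 31, 17 and 20. For DMSO at 48 h, 1 became 0 with DESeq2, with no replicate block and in 1 fit of 35 libraries, which gave 4 in place of 16 at 72 h. With 1 passage left out the ranges were 0 to 1 for AS at 48 h, 0 to 4 for AS at 72 h, 0 to 1 for Ibr at 48 h, 10 to 34, 2 to 13 and 0 to 38 for Ibr+AS at 24, 48 and 72 h, 0 to 1 and 4 to 24 for DMSO at 48 and 72 h, and 0 to 3 for the passages. The median highest over lowest level in a held-out passage was 1.28, and 1.24 in p128 alone. The cause of these changes was not tested. The test of the left-out library called too few genes of any kind for its count of steady genes, 0, to bear on stability. Of the ratios of single genes under other scalings and samples 134 moved by less than the spread between replicates and 26 by more.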
